A study of Danio rerio with 12 samples.

Results

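The mitochondrial respiratory chain genes were followed across 4 genotypes of zebrafish embryos. They were taken as all probe sets whose gene symbol in the platform annotation starts with nduf, sdh followed by a, b, c or d, uqcr, cox4 to cox8, or atp5. The rule found 92 probe sets of 85 genes among the 15502 probe sets tested. Of these, 37 belonged to complex I, 4 to complex II, 8 to complex III, 14 to complex IV and 19 to complex V, and 10 to ndufaf and sdhaf assembly factors. The name fits most members but not all: the assembly factors help to build the complexes without staying in them, atp5if1a and atp5if1b encode inhibitors of the ATP synthase, and ndufa4, counted here by its symbol with complex I, is now placed in complex IV. The symbols in the rule are those of nuclear genes. No probe set carried a symbol that starts with mt-, the form used for mitochondrially encoded genes.

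RNA came from whole embryos at 80 hours post fertilization and was hybridised to 12 Affymetrix zebrafish arrays, 3 per genotype. BRAF;p53 embryos carried a stable transgene, in homozygous form, in which the mitf promoter drives BRAF with the V600E change, on a background homozygous for the M214K change in p53. BRAF embryos carried the same homozygous transgene with p53 intact, p53 embryos were homozygous for the M214K change without the transgene, and wild-type embryos were of the Tu strain. The embryos of each group came from incrosses. Pigment cells and the cells that give rise to them use the mitf promoter and make up a small share of a whole embryo, whereas the p53 change is present in every cell. The number of embryos or clutches behind a sample is not in the labels, and p53 samples 1 and 2 are named 1a and 1b, so each p-value rests on the spread among these arrays, part of which may be technical. The number of arrays limits the precision. In RNA of whole embryos, fewer cells of a type and less RNA per cell cannot be told apart.

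The respiratory chain lies in the inner mitochondrial membrane. Complexes I and II take electrons from NADH and succinate, complex III passes them by way of cytochrome c to complex IV, which reduces oxygen, and complexes I, III and IV pump protons that drive ATP synthesis by complex V. Most subunits are encoded in the nucleus and imported, and in animals their transcripts are abundant in muscle, heart and brain.

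The values were on the log2 scale, and each member probe set was centred near its own median over the 12 arrays. For members a value of 0 is near that median and not absence, and the level of one gene cannot be set against that of another. The members varied less than other probe sets: the median range over the 12 arrays was 0.52 for the 92 members and 0.69 for all probe sets tested, and the median SD between arrays of a genotype was 0.13 and 0.17. Only 5 of 92 members (5.43%) had a range over 1, against 24.9% of all probe sets. The linear median of 0 members lay below 1, against 10.4% of all probe sets, and the part of signal strength in this difference of spread was not tested. A median below 1 also lowers the share of values above 0, so the shares above 0 given below are not fully alike. The members over 1 were ndufaf8, sdhaf4, the second probe set of uqcrc2a, sdhaf2 and cox4i1l, so 3 of the 5 encode assembly factors. The narrowest range was 0.20, for atp5mc3b, which encodes a c subunit of the rotor ring of the ATP synthase.

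As a group, the members were high on a pair of arrays of different genotypes. The median of the 92 members was -0.0069, -0.026 and -0.078 on the BRAF;p53 arrays, 0.18, 0.0097 and 0.0100 on the BRAF arrays, -0.034, -0.014 and -0.057 on the p53 arrays, and 0.17, -0.0054 and -0.00062 on the wild-type arrays. BRAF replicate 1 and wild-type replicate 1 thus stood above the other 10 arrays, which lay close together. On wild-type replicate 1, 83 of 92 members were above 0 (90.2%), against 42.4% of all probe sets, and it was the highest of the 12 arrays for 34 members, against 5.90% of all probe sets. BRAF replicate 1 was the highest array for 35 members, but also for 33.2% of all probe sets. Among other genes, the 69 probe sets of mitochondrial ribosomal proteins had their highest medians on the same arrays (0.21 on BRAF replicate 1 and 0.17 on wild-type replicate 1), and the 16 probe sets of the skeletal muscle list lay at -0.013 and 0.013. The neuron list (11 probe sets) had its lowest medians on this pair, at -0.46 on BRAF replicate 1 and -0.21 on wild-type replicate 1, while its other array medians ran from -0.094 to 0.19. The heart and liver lists (4 and 12 probe sets) had their lowest medians on wild-type replicate 1 (-0.29 and -0.16), and the part of these tissues in the members' values was not tested. BRAF replicate 1 correlated at 0.56 and 0.41 with the other BRAF arrays over all probe sets, and p53 replicate 3 at 0.47 and 0.48 with the other p53 arrays. All other replicate pairs lay between 0.67 and 0.84. At the low end, p53 replicates 3 and 1 were the lowest of the 12 arrays for 23 and 18 members, and for 15.1% and 6.46% of all probe sets.

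**Figure D1:**
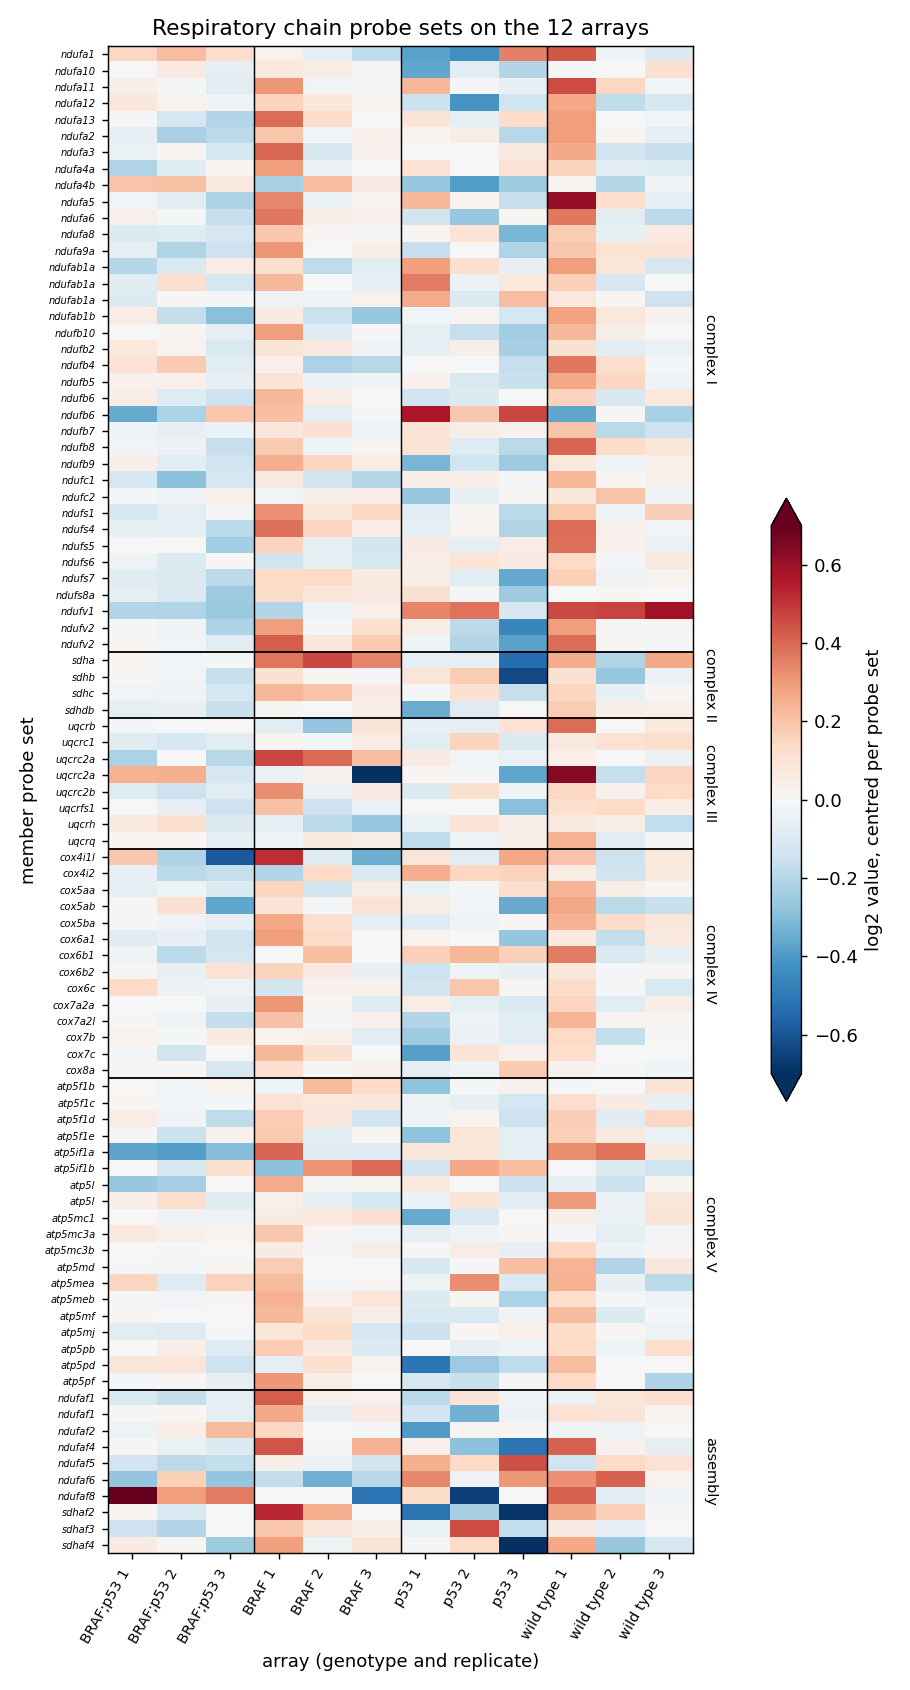
Heat map of the 92 member probe sets (rows, grouped by complex) on the 12 arrays (columns, grouped by genotype); colour is the log2 value centred on each probe set's median, on a scale that ends at -0.7 and 0.7. BRAF replicate 1 and wild-type replicate 1 appear as columns of mostly higher values, with 76 and 83 of 92 members above 0. These are 82.6% and 90.2%, against 61.1% and 42.4% of all probe sets on the same arrays.

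**Figure D2:**
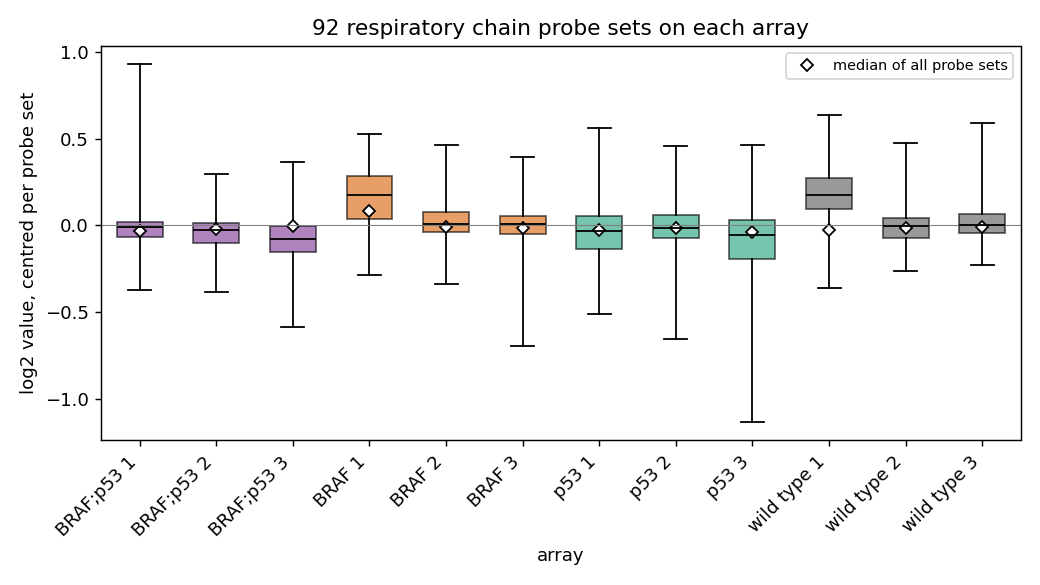
Centred log2 values of the 92 members on each array (boxes for the quartiles, line for the median, whiskers to the lowest and highest value), with the median of all probe sets tested as a diamond. The member medians of BRAF replicate 1 (0.18) and wild-type replicate 1 (0.17) lie above those of the other 10 arrays, which run from -0.078 to 0.0100.

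In BRAF;p53 embryos, 2 members fell and 0 rose against wild type (2.17% of 92, against 1.95% of all probe sets; limma, Benjamini-Hochberg adjusted p under 0.05, two-sided). They were ndufv1 of complex I and atp5if1a of complex V. The estimate was negative for 77 of 92 members, with a median of -0.093 on the log2 scale, against 53.9% and -0.011 for all probe sets.

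The gene ndufv1 encodes the core subunit of complex I that holds the flavin and takes electrons from NADH. Its values were -0.21, -0.21 and -0.26 on the BRAF;p53 arrays, -0.21, -0.035 and 0.034 on the BRAF arrays, 0.34, 0.38 and -0.11 on the p53 arrays, and 0.46, 0.47 and 0.59 on the wild-type arrays. The arrays of the other 3 genotypes all lay below every wild-type array, p53 included, and 1 of the 3 p53 arrays was within the range of the BRAF arrays. The mean was -0.23 ± 0.031 in BRAF;p53 and 0.51 ± 0.071 in wild type (SD, n = 3 each), a difference of -0.73 ± 0.13 (SE) or 1.66-fold lower in BRAF;p53 (limma adjusted p = 0.0119). This call was lost narrowly without BRAF;p53 replicate 1 or 3 or wild-type replicate 3, where the limma adjusted p reached 0.0563. In p53 embryos ndufv1 differed from wild type by -0.30 ± 0.13 without passing (limma adjusted p = 0.300).

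The gene atp5if1a encodes the inhibitory factor that stops the ATP synthase from running in reverse, and zebrafish lacking it have a defect of heme synthesis in red blood cells. It had -0.37, -0.39 and -0.30 on the BRAF;p53 arrays, 0.41, -0.086 and -0.088 on the BRAF arrays, 0.077, 0.078 and -0.065 on the p53 arrays, and 0.32, 0.38 and 0.062 on the wild-type arrays. The BRAF;p53 arrays were the lowest 3 of the 12 and did not overlap with any other genotype. Against wild type the difference was -0.61 ± 0.14 (limma adjusted p = 0.0493), 1.53-fold lower in BRAF;p53. It rests on the full set of arrays, since it passed in only 2 of the 12 fits that each left out 1 array (without BRAF replicate 1 or p53 replicate 3), with an adjusted p of up to 0.166 when BRAF;p53 replicate 1 was omitted. The erythrocyte list gave 0 calls among 5 probe sets in this comparison, with a median of 0.14. At an unadjusted p under 0.05 in limma it had 2 (40%), against 13% of all probe sets. The part of this list in the result was not tested. The paralog atp5if1b had differences from wild type of 0.081, 0.22 and 0.19 in BRAF;p53, BRAF and p53 embryos (limma adjusted p = 0.958, 0.484 and 0.671).

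Across the complexes, negative estimates in BRAF;p53 against wild type numbered 32 of 37 for complex I, 3 of 4 for complex II, 7 of 8 for complex III, 12 of 14 for complex IV, 15 of 19 for complex V and 8 of 10 for assembly factors. The medians ran from -0.046 for complex V to -0.14 for complex III and the assembly factors. In complex I the 6 core probe sets, of ndufs1, ndufs7, ndufs8a, ndufv1 and ndufv2, were all negative, with a median of -0.18. Of the 31 accessory probe sets 26 were negative, with a median of -0.10. The BRAF;p53 and wild-type arrays did not overlap in 21 members lower and 2 higher in BRAF;p53 (22.8% and 2.17%), against 12.9% and 12.4% of all probe sets. Without wild-type replicate 1, where most members were high, the negative estimates numbered 61 (66.3%), against 56.7% of all probe sets. The median was then -0.045, against -0.021 for all probe sets. The members nearest the threshold by complex were sdhdb, a membrane anchor of complex II (-0.18), uqcrc1, a core protein of complex III (-0.19), cox5ba of complex IV (-0.18) and ndufaf6, an assembly factor of complex I (-0.38). None of these passed (limma adjusted p = 0.506, 0.371, 0.472 and 0.303).

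**Figure D3:**
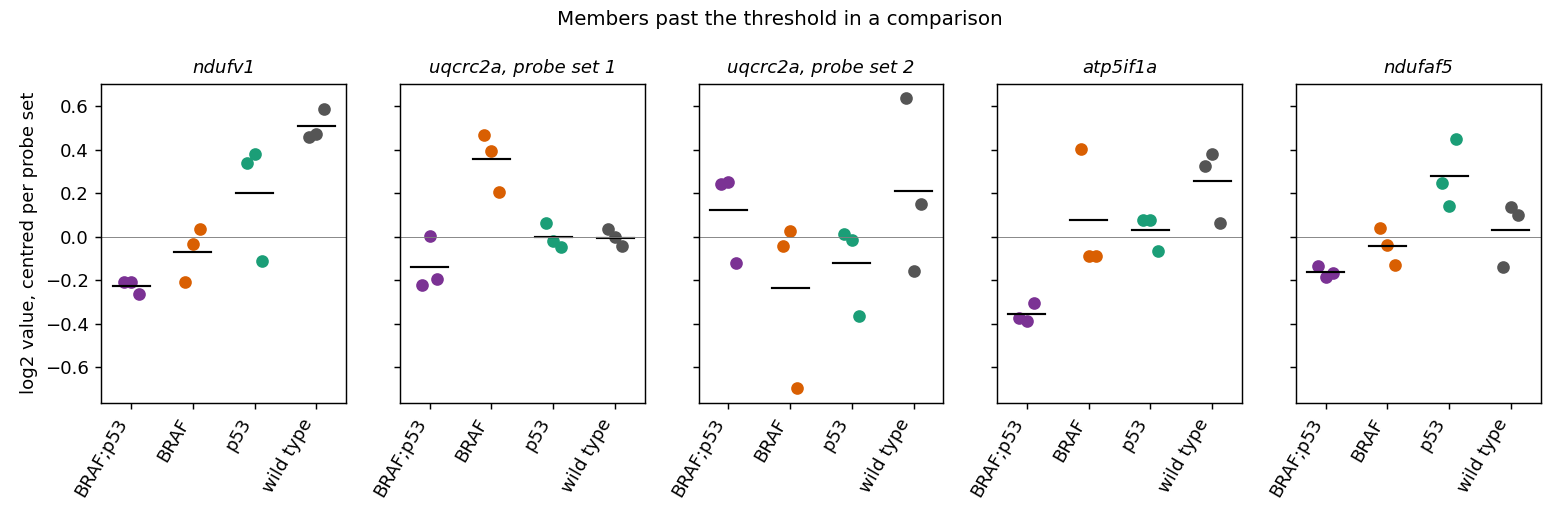
Centred log2 values per array of the 4 genes with a passing member, by genotype; points are arrays and the line is the mean of 3. The panel of ndufv1 shows the arrays of the other 3 genotypes below the wild-type arrays, and the probe sets of uqcrc2a run in opposite directions between BRAF and wild type.

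In BRAF embryos, 1 member rose and 1 fell against wild type (2.17%, against 6.41% of all probe sets by the same test). The member that fell was again ndufv1, by 0.58 ± 0.13 on the log2 scale (limma adjusted p = 0.0200), 1.49-fold lower in BRAF. That call was lost without BRAF replicate 2 or any 1 of the wild-type arrays, with an adjusted p of up to 0.0747. The mean of ndufv1 was -0.069 ± 0.12 in BRAF and 0.51 ± 0.071 in wild type (SD, n = 3 each).

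The member that rose was the first of the pair of probe sets of uqcrc2a, which encodes a core protein of complex III. This probe set had -0.22, 0.0031 and -0.20 on the BRAF;p53 arrays, 0.47, 0.39 and 0.21 on the BRAF arrays, 0.063, -0.018 and -0.045 on the p53 arrays, and 0.036, -0.0031 and -0.043 on the wild-type arrays. The BRAF arrays were the highest 3 of the 12. The difference in BRAF was 0.36 ± 0.094 (limma adjusted p = 0.0459), and it passed in only 3 of the 12 fits that each left out 1 array (without BRAF replicate 3, BRAF;p53 replicate 2 or p53 replicate 3), with an adjusted p of up to 0.127. Of 10 other settings it passed in 1, with the arrays centred on their medians. The 10 include a fit without BRAF replicate 1 and wild-type replicate 1.

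The second probe set of uqcrc2a did not show this rise. It had 0.24, 0.25 and -0.12 on the BRAF;p53 arrays, -0.041, 0.028 and -0.70 on the BRAF arrays, 0.013, -0.013 and -0.36 on the p53 arrays, and 0.64, -0.16 and 0.15 on the wild-type arrays, with wide spread and overlapping groups. Its difference in BRAF was -0.45 (limma adjusted p = 0.298), and with both probe sets averaged the gene had -0.043 (limma adjusted p = 0.888). The paralog uqcrc2b had a difference of 0.0093 (limma adjusted p = 0.97). The rise in BRAF embryos was thus seen with 1 of the 2 probe sets and not with their average.

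The other members were spread around the value of the whole array in BRAF against wild type. The estimate was negative for 41 of 92, against 42.1% of all probe sets, and the median was 0.018, against 0.047. Arrays of the genotypes did not overlap in 3 members higher and 4 lower in BRAF (3.26% and 4.35%), against 18.7% and 9.64% of all probe sets. Without wild-type replicate 1 this count was 26 higher and 5 lower (28.3% and 5.43%), against 22.5% and 13% of all probe sets. Without BRAF replicate 1 it was 6 higher and 15 lower (6.52% and 16.3%), against 24.7% and 21.5%. Leaving out an array cannot lower such a count for any set of probe sets. Complex II had the highest median of the complexes (0.12). Its catalytic flavoprotein gene sdha had 0.37, 0.47 and 0.34 on the BRAF arrays, above the wild-type values of 0.26, -0.21 and 0.27, without passing (0.29 ± 0.15, limma adjusted p = 0.299). The complex I assembly factor gene ndufaf6 was lower on all BRAF arrays (-0.17, -0.34 and -0.20) than on the wild-type arrays (0.32, 0.41 and 0.023), without passing (-0.49 ± 0.15, limma adjusted p = 0.0907).

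In p53 embryos, 0 members passed against wild type, while 1.83% of all probe sets did. At an unadjusted p under 0.05 there were 14 members (15.2%), 12 of them lower in p53, against 14.3% of all probe sets. The estimate was negative for 72 of 92 members, with a median of -0.12, against 49.7% and 0.0015 for all probe sets. Without wild-type replicate 1 these were 60 members (65.2%) and -0.057, against 51.9% and -0.0071 for all probe sets. Arrays of the genotypes did not overlap in 16 members lower and 3 higher in p53 (17.4% and 3.26%), against 10.4% and 8.68% of all probe sets.

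By complex, the medians in p53 against wild type were -0.17 for complex I, -0.14 for complex II, -0.11 for complexes III and V, -0.076 for complex IV and -0.17 for the assembly factors. The 6 core probe sets of complex I were again all negative, with a median of -0.25. Of the 31 accessory probe sets 24 were negative, with a median of -0.14, against 49.7% negative among all probe sets. The core probe sets had array medians of 0.050, -0.044 and -0.30 in p53 and 0.24, 0.0075 and 0.022 in wild type. Thus p53 replicate 1 lay above wild-type replicates 2 and 3. The member nearest the threshold was sdhaf2, whose product helps to attach the flavin to the catalytic subunit of complex II. It had 0.011, -0.11 and -0.0023 on the BRAF;p53 arrays, 0.53, 0.25 and 0.0023 on the BRAF arrays, -0.51, -0.23 and -0.69 on the p53 arrays, and 0.27, 0.17 and -0.012 on the wild-type arrays. The p53 arrays were the lowest 3 of the 12, and the difference from wild type was -0.62 ± 0.15 (limma adjusted p = 0.0683). It passed when BRAF replicate 1 or 3 was omitted from the fit.

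Probe sets also disagreed for ndufb6, which encodes an accessory subunit of the membrane arm of complex I. The second of its probe sets had 0.56, 0.19 and 0.47 on the p53 arrays and -0.36, 0.0087 and -0.23 on the wild-type arrays (0.60 ± 0.16, limma adjusted p = 0.0981), while the other had a difference of -0.12 (limma adjusted p = 0.657). In complex V, atp5pd, a subunit of the peripheral stalk, had -0.51, -0.25 and -0.18 on the p53 arrays, below all wild-type values of 0.21, -0.0013 and 0.0013 (-0.38 ± 0.11, limma adjusted p = 0.136).

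With p53 mutant in both groups, the effect of the transgene was asked by comparing BRAF;p53 with p53 embryos. Here 1 member fell and 0 rose (1.09%, against 2.94% of all probe sets). It was ndufaf5, whose product in mammals modifies a core subunit of complex I during assembly. Its values were -0.14, -0.18 and -0.17 on the BRAF;p53 arrays, 0.039, -0.040 and -0.13 on the BRAF arrays, 0.25, 0.14 and 0.45 on the p53 arrays, and -0.14, 0.14 and 0.10 on the wild-type arrays. The p53 arrays lay above the BRAF;p53 and BRAF arrays and, by a narrow margin, above the wild-type arrays. The difference between BRAF;p53 and p53 was -0.44 ± 0.10 (limma adjusted p = 0.0481), 1.36-fold lower in BRAF;p53, and against wild type it was -0.20 in BRAF;p53 and 0.25 in p53 (limma adjusted p = 0.491 and 0.306). The call passed in only 2 of the 12 fits that each left out 1 array (without BRAF replicate 1 or wild-type replicate 1) and had an adjusted p of up to 0.162 when BRAF;p53 replicate 2 was omitted. Of the same 10 other settings it passed in 4.

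Over the whole group the estimates fell on both sides of 0. They were negative for 42 of 92, with a median of 0.0062, against 52.5% and -0.010 for all probe sets. Groups did not overlap in 12 members higher and 8 lower in BRAF;p53 (13% and 8.70%), against 11.8% and 10.1% of all probe sets. Without BRAF replicate 1 in the fit, 3 of 92 members passed, against 4.44% of all probe sets. Nearest the threshold with all arrays was ndufa4b, with 0.20, 0.20 and 0.064 on the BRAF;p53 arrays and -0.26, -0.39 and -0.25 on the p53 arrays (0.46 ± 0.12, limma adjusted p = 0.0646). Its paralog ndufa4a had a difference of -0.16 (limma adjusted p = 0.579). In complex IV, cox4i2, an isoform of subunit 4 that responds to low oxygen in mammals, had a difference of -0.32 (limma adjusted p = 0.149).

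With the transgene in both groups, the effect of p53 was asked by comparing BRAF;p53 with BRAF embryos. Again 1 member fell and 0 rose (1.09%, against 4.5% of all probe sets). It was the first probe set of uqcrc2a, whose BRAF;p53 arrays lay below its BRAF arrays without overlap (-0.49 ± 0.094, limma adjusted p = 0.0141, 1.41-fold lower in BRAF;p53). This call passed in 11 of the 12 fits that left out 1 array and was lost without BRAF;p53 replicate 1 (limma adjusted p = 0.0748). The second probe set had a difference of 0.36 (limma adjusted p = 0.378), and the average of both had -0.066 (limma adjusted p = 0.818).

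The estimate was negative for 78 of 92 members between BRAF;p53 and BRAF, with a median of -0.11, against 60.4% and -0.057 for all probe sets. Groups did not overlap in 32 members lower and 2 higher in BRAF;p53 (34.8% and 2.17%), against 18.3% and 10.7% of all probe sets. Without BRAF replicate 1 the negative estimates numbered 67 (72.8%) and the median was -0.064, against 52.7% and -0.013 for all probe sets. The 6 core probe sets of complex I, of 5 genes, were all lower on every BRAF;p53 array than on every BRAF array. Of the 31 accessory probe sets this held for 7. The highest BRAF;p53 and lowest BRAF values nearly met for ndufv1 (-0.207 and -0.206) and the first probe set of ndufv2 (-0.014 and -0.0068). The differences of the 6 lay between -0.26 and -0.16. Of these 0 passed and 3 (50%) had an unadjusted p under 0.05 in limma, against 4.5% and 22% of all probe sets. The iron-sulfur subunit gene ndufs1, for example, had -0.12, -0.068 and -0.0060 on the BRAF;p53 arrays and 0.32, 0.083 and 0.15 on the BRAF arrays (-0.25 ± 0.098, limma adjusted p = 0.174). In complex II, sdha had 0.012, -0.020 and -0.012 on the BRAF;p53 arrays, below the BRAF values given above (-0.40 ± 0.15, limma adjusted p = 0.158). The assembly factor gene ndufaf8 lay on the other side, with 0.93, 0.29 and 0.36 on the BRAF;p53 arrays and -0.0052, -0.0025 and -0.52 on the BRAF arrays (0.70 ± 0.24, limma adjusted p = 0.134).

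**Figure D4:**
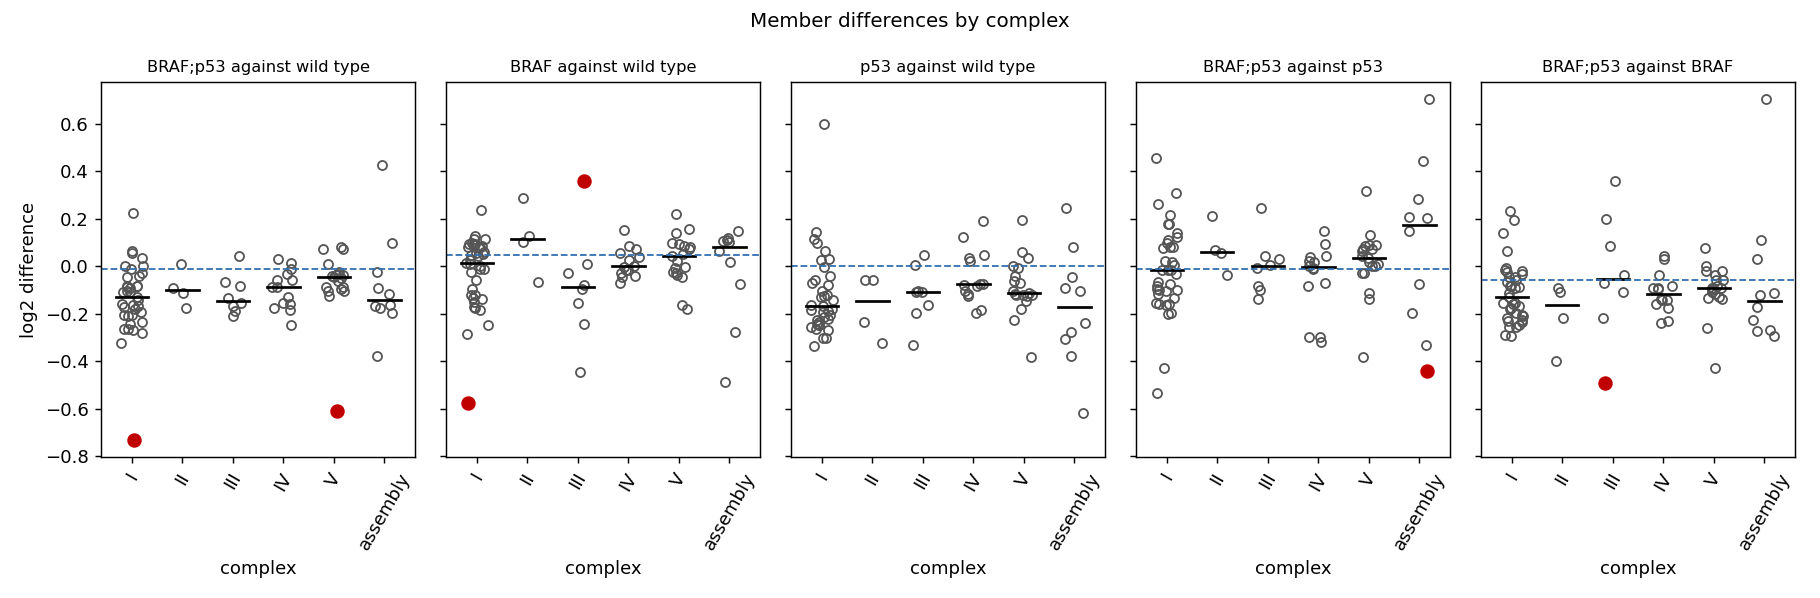
Log2 differences of the member probe sets (circles, filled red where past the threshold) by complex in the 5 pairwise comparisons; the black line is the median of the complex and the blue dashed line the median of all probe sets tested. Most circles lie within 0.5 of 0, and the medians lie below 0 in BRAF;p53 and p53 against wild type and in BRAF;p53 against BRAF.

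Whether the transgene acted differently with and without p53 was tested as an interaction, the difference of BRAF;p53 from p53 less that of BRAF from wild type. It passed for 0 members, against 3.21% of all probe sets, and 7 members (7.61%) had an unadjusted p under 0.05 against 18.8%. The median was -0.0016, against -0.043 for all probe sets. The smallest p values were those of the first probe set of uqcrc2a (-0.50 ± 0.13, limma adjusted p = 0.0731) and the probe set of ndufb6 described above (-0.77 ± 0.23, limma adjusted p = 0.0975). Without BRAF;p53 replicate 3 the interaction passed for 1 member, ndufb6, and for 2.4% of all probe sets.

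The precision of the estimates was the same in all 5 pairwise comparisons by design. The fit pooled the variance of a probe set over equally sized genotypes. It thus does not show whether the spread was alike in the genotypes. The SD of the member median between arrays was 0.022 in p53 and 0.102 in wild type. The median width of the 95% confidence interval to either side was 0.25 for members and 0.30 for all probe sets in the pairwise comparisons. The interval lay within 0.5 of 0 for 78 of 92 members in BRAF;p53, 76 in BRAF and 74 in p53 against wild type. An estimate beyond 0.5 in size was found in 2, 1 and 2 members (2.17%, 1.09% and 2.17%), against 8.07%, 10.6% and 7.39% of all probe sets. These comparisons share the wild-type arrays.

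Of the 6 genes with several member probe sets (ndufab1a, ndufb6, ndufv2, uqcrc2a, atp5l and ndufaf1), the probe sets had the same sign in 5 genes for BRAF;p53, 3 for BRAF and 3 for p53 against wild type. The 2 probe sets of ndufv2, a core iron-sulfur subunit of complex I, had -0.19 and -0.16 in BRAF;p53, 0.027 and 0.099 in BRAF and -0.30 and -0.34 in p53 against wild type. For atp5l, which encodes the g subunit of the ATP synthase, they had -0.10 and -0.087 in BRAF;p53 and 0.16 and -0.16 in BRAF. The 3 probe sets of the acyl carrier gene ndufab1a ranged from -0.17 to -0.013 in BRAF;p53 against wild type, and the paralog ndufab1b had -0.26 (limma adjusted p = 0.375).

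Other mitochondrial genes were compared with wild type from lists of known function. Among 26 probe sets of other assembly factors and electron carriers, 0 passed in BRAF;p53 and BRAF, against 1.95% and 6.41% of all probe sets. At an unadjusted p under 0.05 in limma there were 3 and 7 (11.5% and 26.9%), against 13% and 21.1% of all probe sets. In p53 against wild type 2 fell (7.69%, against 1.83% of all probe sets). They were ecsit, a complex I assembly factor gene (-0.86 ± 0.13, limma adjusted p = 0.00984), and cox11, which delivers copper to complex IV (-0.93 ± 0.19, limma adjusted p = 0.0308). The ecsit values were 0.24, 0.22 and 0.34 on the BRAF;p53 arrays, 0.051, -0.46 and -0.51 on the BRAF arrays, -0.81, -0.71 and -0.84 on the p53 arrays, and 0.12, 0.14 and -0.053 on the wild-type arrays. The p53 arrays were thus the lowest 3 of the 12.

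Of 22 probe sets of the tricarboxylic acid cycle and pyruvate dehydrogenase, 1 fell and 0 rose in each comparison with wild type (4.55%, against 1.95%, 6.41% and 1.83% of all probe sets in BRAF;p53, BRAF and p53). This was suclg2, the GTP-forming succinyl-CoA ligase subunit, in BRAF;p53 (-0.78, limma adjusted p = 0.00242) and in BRAF (-0.43, limma adjusted p = 0.0311), and sucla2, the ADP-forming subunit, in p53 (-0.65, limma adjusted p = 0.0359). The 6 probe sets of nucleotide and phosphate carriers and porins and the 5 of mitochondrial antioxidant enzymes gave 0 calls. At most 2 in a comparison had an unadjusted p under 0.05 in limma. This was so for carriers and porins in BRAF;p53 (33.3%) and antioxidant enzymes in p53 (40%), against 13% and 14.3% of all probe sets. In the import machinery, timm8b, a small chaperone of the intermembrane space, was the only call among 19 probe sets. It fell in BRAF;p53 (-0.70, limma adjusted p = 0.0075) and in p53 (-0.79, limma adjusted p = 0.00472). That is 5.26% of the list in each, against 1.95% and 1.83% of all probe sets. In BRAF 0 of the 19 passed, against 6.41% of all probe sets. There 8 (42.1%) had an unadjusted p under 0.05 in limma, 5 higher and 3 lower, against 21.1% of all probe sets.

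The mitochondrial ribosome list had 69 probe sets, of which 1 fell in BRAF;p53, 4 in BRAF and 4 in p53 against wild type, and 0 rose. These are 1.45%, 5.8% and 5.8% of the list, against 1.95%, 6.41% and 1.83% of all probe sets, so the share was above that of all probe sets only in p53. The large subunit gene mrpl43 fell in all 3 (-0.59, -0.89 and -0.77, with limma adjusted p = 0.0158 in BRAF;p53). The small subunit gene mrps2 was among the 4 in both BRAF and p53. Also among the 4 in p53 were mrps35 and mrps5 (-0.53 and -0.41, limma adjusted p = 0.0416 and 0.0408). These passed in only 3 and 1 of the 12 fits that each left out 1 array. The second probe set of mrps35 had -0.17 in p53, and the others of mrps5 had -0.16 and 0.81, without passing. Another of the 4 in BRAF was mrps23 (-0.43, limma adjusted p = 0.0194), which passed in 9 of the 12 fits that each left out 1 array. The large subunit gene mrpl2 was also among the 4 in BRAF (-0.51, limma adjusted p = 0.0339). These comparisons share the wild-type arrays, in which mrpl43 was high (0.74, 0.78 and 0.53).

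Among 11 probe sets of regulators of mitochondrial biogenesis, 0 rose and 1 fell in BRAF;p53, and 3 rose and 0 fell in BRAF. In p53 0 passed, against 1.83% of all probe sets. At an unadjusted p under 0.05 in limma, p53 had 3 (27.3%), against 14.3% of all probe sets. The calls made up 9.09% in BRAF;p53 and 27.3% in BRAF, against 1.95% and 6.41% of all probe sets. Both probe sets of ppargc1b, a coactivator of nuclear genes for mitochondrial proteins, rose in BRAF against wild type (2.16 ± 0.25 and 1.34 ± 0.18, limma adjusted p = 0.00054 and 0.00138). The first had -0.38, -0.22 and -0.74 on the BRAF;p53 arrays, 1.40, 1.93 and 1.86 on the BRAF arrays, 0.69, 0.43 and 0.12 on the p53 arrays, and -1.03, -0.13 and -0.15 on the wild-type arrays. The BRAF arrays stood apart from the other 9, and the difference of BRAF;p53 from wild type was -0.0078 (limma adjusted p = 1.00). The transcription factor gene tfb2m had 1 probe set that fell in BRAF;p53 (-0.83, limma adjusted p = 0.0493) and another that rose in BRAF (0.54, limma adjusted p = 0.0331).

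Fatty acid oxidation and glycolysis were the other fuel pathways examined. In BRAF;p53 and p53, 0 of 17 fatty acid oxidation probe sets passed against wild type. There 5 in each had an unadjusted p under 0.05 in limma (29.4%), against 13% and 14.3% of all probe sets. In BRAF against wild type 2 rose and 3 fell (29.4%, against 6.41% of all probe sets). Both that rose belong to cpt2, which acts in the entry of fatty acids into mitochondria (0.96 and 0.80), while the 3 that fell included etfa and echs1. Of 32 glycolysis probe sets, 1 fell in BRAF;p53, 2 fell and 1 rose in BRAF, and 1 fell in p53. These are 3.12%, 9.38% and 3.12% of the list, against 1.95%, 6.41% and 1.83% of all probe sets. The triosephosphate isomerase gene tpi1a fell in BRAF;p53 and BRAF (-1.74 and -1.38), and pgam2, a muscle phosphoglycerate mutase, fell in p53 (-0.63). In BRAF gpib also fell (-0.71, limma adjusted p = 0.00833) and pgam1b rose (0.42, limma adjusted p = 0.0300).

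The lower estimates of the members in BRAF;p53 and p53 against wild type were shared by several of these lists. In BRAF;p53 the estimate was negative for 20 of 22 tricarboxylic acid cycle probe sets (median -0.17), 13 of 17 for fatty acid oxidation (-0.14), 24 of 32 for glycolysis (-0.11) and 47 of 69 for the mitochondrial ribosome (-0.094), beside 77 of 92 members (-0.093). These are 90.9%, 76.5%, 75%, 68.1% and 83.7%, against 53.9% of all probe sets (median -0.011). In p53 the medians of the same lists were -0.23, -0.18, -0.081 and -0.14, beside -0.12 for the members and 0.0015 for all probe sets. The tricarboxylic acid cycle list had a lower median than the members in both. Of its 22 probe sets, 11 were lower on every BRAF;p53 array than on every wild-type array (50%, against 12.9% of all probe sets). Its median between BRAF;p53 and BRAF was -0.25, with 20 of 22 negative, beside -0.11 and 78 of 92 for the members. All probe sets had a median of -0.057 there, with 60.4% negative. The biogenesis regulators and the carriers and porins had medians against wild type of -0.0027 and 0.010 in BRAF;p53 and -0.019 and -0.054 in p53. These differences between lists were not tested. Both comparisons share the wild-type arrays. Without wild-type replicate 1 the member medians were -0.045 in BRAF;p53 and -0.057 in p53, against -0.021 and -0.0071 for all probe sets. The mitochondrial ribosome list also stood high on that array (median 0.17), against 0.019 and -0.028 on the other wild-type arrays. Among the wild-type arrays the glycolysis list was highest on replicate 3. The part of wild-type replicate 1 in the estimates of the lists was not tested.

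Some of the calls named in these lists passed in all 12 fits that each left out 1 array. They were those of ecsit, timm8b, tpi1a, gpib, both probe sets of ppargc1b and the stronger probe set of cpt2. Also kept in all 12 were the calls of suclg2 in BRAF;p53 and mrpl43 in BRAF and p53. That of cox11 was lost without 6 of the arrays (up to 0.110 without wild-type replicate 3), mrpl43 in BRAF;p53 without BRAF;p53 replicate 1 or 3 or wild-type replicate 1 or 2 (up to 0.0713), and suclg2 in BRAF without BRAF replicate 2 or 3 or wild-type replicate 1 or 2 (up to 0.117), all limma adjusted p. The call of sucla2 passed in 3 of the 12 fits, those of tfb2m in 4 and 6, and those of etfa and echs1 in 4 and 5. Those of pgam1b and mrpl2 in BRAF passed in 7 and 4. The mrps2 calls were lost without any 1 wild-type array in BRAF and without wild-type replicate 1 or 3 in p53, the weaker cpt2 call without BRAF replicate 3 or wild-type replicate 2 or 3, and pgam2 without p53 replicate 2 or wild-type replicate 3.

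Other settings also ended some of these calls. Of 10 such settings, gpib passed in 10, mrpl2 in 8, pgam1b in 5, mrps35 in 4 and mrps5 in 2. The losses of the other named calls follow. With only the genotypes compared in the fit, cox11, pgam2, sucla2, both tfb2m probe sets and, in BRAF, suclg2, mrps2, mrps23, etfa and echs1 no longer passed (limma adjusted p from 0.0628 for pgam2 to 0.140 for cox11). Averaging its probe sets left tfb2m at -0.25 in BRAF;p53 and 0.18 in BRAF (limma adjusted p = 0.405 and 0.413). With trend and robust settings, the calls of mrpl43 in BRAF;p53 and etfa in BRAF were lost (limma adjusted p = 0.0695 and 0.0576). Without BRAF replicate 1 and wild-type replicate 1 together, both tfb2m calls, mrpl43 in BRAF;p53, sucla2, and in BRAF suclg2, etfa, echs1 and the weaker cpt2 call were lost. The replicate block ended those of echs1 and sucla2, averaged p53 samples 1a and 1b those of sucla2 and of tfb2m in BRAF;p53, quantile normalization that of tfb2m in BRAF, and the minimum difference of 0.5 those of suclg2, mrps2, mrps23 and echs1 in BRAF.

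Markers of tissues rich in mitochondria were examined beside the members. The skeletal muscle list (16 probe sets) gave 1 call, a rise of desma in BRAF against wild type (0.62, passing in 4 of the 12 fits without 1 array and lost with only the genotypes compared), and its median difference was -0.0094 in BRAF;p53, -0.011 in BRAF and 0.0013 in p53. The liver list (12 probe sets) gave 1 call, a rise of fgb in BRAF (0.49). It was lost without wild-type replicate 1, alone or with BRAF replicate 1. With only the genotypes compared or the minimum difference of 0.5 it was lost too. The calls of desma and fgb are 6.25% and 8.33% of their lists, against 6.41% of all probe sets. The heart, neuron, ionocyte, erythrocyte and melanophore lists (4, 11, 8, 5 and 3 probe sets) gave 0 calls against wild type in limma. At most 3 probe sets of a list in a comparison had an unadjusted p under 0.05. This was so for ionocytes in BRAF;p53 and in BRAF (37.5% in each), against 13% and 21.1% of all probe sets. The median of the heart list was 0.30, 0.17 and 0.37 in BRAF;p53, BRAF and p53, and that of the neuron list 0.089, -0.092 and 0.15. In the same order the medians were 0.087, 0.12 and 0.20 for liver, 0.078, 0.23 and 0.19 for ionocytes, 0.14, -0.27 and 0.0066 for erythrocytes, and 0.38, 0.15 and -0.17 for melanophores. In BRAF;p53 against p53, the ion pump gene atp1a1a.2 of the ionocyte list (0.44) and the melanin synthesis gene tyr of the melanophore list (0.90) rose (limma adjusted p = 0.0427 and 0.0267). There the estimate was negative for 6 of the 8 ionocyte probe sets (median -0.085) and positive for all 3 melanophore probe sets (median 0.73). In BRAF;p53 against BRAF, atp1a1a.4 fell (-0.95) and tyr rose (0.82, limma adjusted p = 0.0180 and 0.0311). In that comparison 5 of the 8 ionocyte probe sets were negative (median -0.16) and 2 of the 3 melanophore probe sets positive (median 0.098). Centred values do not show whether the markers of a tissue were present, so the label of whole embryos could not be checked by level, and the part of tissue makeup in the results was not tested.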

How the data were processed

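The deposited values were log2 values made with GCRMA (version not given), per the submitters' processing notes. They had been centred: 13937 of 15617 probe sets had a linear median of 1 over the 12 arrays within 0.0001. No filter on low values or pseudocount could be applied, and levels and signal over background stay unknown. The 115 control probe sets were left out and 15502 tested in limma 3.58.1 (R 4.3.3) with 1 mean per genotype, no block, and Benjamini-Hochberg adjustment over all 15502 at 0.05, two-sided. The fit was tested on simulated data. Figures used Python 3.11.15 and matplotlib 3.10.9.

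Members and lists were chosen with earlier results of these data known. Symbols came from the platform annotation, and all 92 member symbols were found in the RefSeq gene table. Another 2 probe sets that carry several symbols were left out. Named are members past the threshold in any comparison, the member with the smallest p per complex and comparison, genes with several probe sets, and paralogs. From each other list, up to 4 passing probe sets per comparison with wild type are named by smallest p. Genes whose values bear on these are also named. The genes sdhaf4, cox4i1l and atp5mc3b were named by their range, and timm17a, eno1b, tyr, atp1a1a.2 and atp1a1a.4 by calls in other comparisons, after values were seen. Alternatives were quantile normalization, centred arrays, a replicate block, eBayes with a trend and robust fitting, p53 samples 1a and 1b averaged, probe sets of a gene averaged, probe sets with a median below 1 left out, only the genotypes compared, a minimum log2 difference of 0.5, and each array left out. No sequences or coordinates are given.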

Additional observations from a re-analysis of the deposited data

Results flagged for a closer look

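For 6 genes of the other lists with a call against wild type, the limma interaction passed. It is the difference of BRAF;p53 from p53 less that of BRAF from wild type (SE, n = 3 per genotype, Benjamini-Hochberg adjusted over all probe sets). The interaction of ecsit, the complex I assembly factor gene, was 1.42 ± 0.19 (limma adjusted p = 0.00219). Both probe sets of the coactivator gene ppargc1b had negative interactions, of -3.02 ± 0.36 and -1.47 ± 0.26 (limma adjusted p = 0.00115 and 0.0110). The mitochondrial ribosomal protein genes mrpl43, mrps23 and mrps2 had 1.07 ± 0.15, 0.82 ± 0.13 and 1.00 ± 0.15 (limma adjusted p = 0.00301, 0.00673 and 0.00492). For mrpl43 the other 3 genotypes were all lower than wild type, and BRAF;p53 differed from p53 by 0.18 (limma adjusted p = 0.474). A higher level in wild type than in the other 3 genotypes also gives a positive interaction, and a lower level a negative one. Such a difference of the wild-type embryos cannot be told apart from a transgene effect that depends on p53. One of the probe sets of cpt2, of fatty acid entry, had -1.004 ± 0.17 (limma adjusted p = 0.00896). Of the list genes without a call against wild type, timm17a of protein import (0.98 ± 0.23, limma adjusted p = 0.0438) and eno1b of glycolysis (-1.01 ± 0.24, limma adjusted p = 0.0494) also passed the interaction. These genes belong to lists chosen with earlier results of these data known. No respiratory chain member was among them.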

How the results depend on the processing

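Median differences of the members moved by less than 0.073 under the alternatives run, the pooled SD of the member median between arrays of a genotype, though some halved or changed sign. That SD was 0.037 in BRAF;p53, 0.096 in BRAF, 0.022 in p53 and 0.10 in wild type. Counts of passing members moved too, as did the share of all probe sets that passed. The counts were 2, 2, 0, 1, 1 and 0 for BRAF;p53, BRAF and p53 against wild type, BRAF;p53 against p53, BRAF;p53 against BRAF, and the interaction. For BRAF against wild type the count was 1 under quantile normalization, trend and robust settings, p53 samples 1a and 1b averaged, probe sets averaged, low-median probe sets left out, only the genotypes compared, or a minimum log2 difference of 0.5, and 0 without BRAF replicate 1 and wild-type replicate 1, a setting chosen after seeing the data. Of all probe sets, 3.86% to 7.12% passed in these fits before the minimum difference was applied. The count for BRAF;p53 against p53 was 3 under quantile normalization (4.5% of all probe sets) and 2 without that pair of arrays (3.9%). It was 0 under trend and robust settings, averaged 1a and 1b, low-median probe sets left out, only the genotypes compared, or the minimum of 0.5 (1.64% to 3.25% of all probe sets before that minimum). It was 1 for p53 against wild type under quantile normalization (sdhaf2, with 2.3% of all probe sets passing). It was also 1 for BRAF;p53 against wild type with 1a and 1b averaged (1.81% of all probe sets). For BRAF;p53 against BRAF it was 2 under quantile normalization (5.64% of all probe sets). It was 0 with probe sets averaged (4.66%), only the genotypes compared (3.84%), or the minimum of 0.5. Leaving out 1 array at a time gave 0 to 2, 0 to 2, 0 to 1, 0 to 3, 0 to 1 and 0 to 1 members, and medians of -0.14 to -0.045, -0.022 to 0.064, -0.15 to -0.057, -0.021 to 0.035, -0.13 to -0.064 and -0.054 to 0.053, in the order above. Of all probe sets, 1.05% to 3.29%, 3.84% to 7.66%, 1.04% to 3.01%, 1.15% to 4.44%, 1.95% to 6.33% and 1.83% to 5.08% passed in those fits. With probe sets averaged, uqcrc2a in BRAF against wild type reversed to -0.043, and mrps5 in p53 against wild type to 0.083. The causes were not tested.

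The labels do not say whether replicate numbers pair the arrays. Deviations from the genotype means correlated at -0.32 to 0.36 in 18 same-number pairs, 7 of them over 0.1. In 36 other pairs they correlated at -0.39 to 0.31, 10 of them over 0.1. The ranges overlap, so these values do not settle whether arrays were paired. With the replicate block the counts were 2, 1, 1, 0, 1 and 0, against 2.12%, 6.42%, 2.04%, 2.74%, 4.53% and 3.1% of all probe sets. A low-value filter and a pseudocount could not be run on centred values, and signal over background is not known for any member.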
